A study of Mus musculus with 2 samples.

Results

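The 9 genes described here encode the structural proteins of the M-band and the myosin-binding proteins of striated muscle. They were taken by symbol from the 55536 annotated genes of the tables: the myomesins Myom1, Myom2 and Myom3, Obsl1, the myosin-binding proteins C Mybpc1, Mybpc2 and Mybpc3, and the myosin-binding proteins H Mybph and Mybphl. All 9 were found. The data were total RNA sequencing of heart from female B6CASTF1/J mice, a cross of C57BL/6J and CAST/EiJ, at 14 days of age. There was 1 group of 2 libraries, called replicates 1 and 2, with no treatment and no other tissue or age. Each library began with 300 ng of RNA, and ERCC spike-in RNAs were used. The labels give both libraries 1 donor identifier. They number the tissue pieces differently, and their shared wording leaves it unclear whether 3 animals were pooled. SD (n = 2) is therefore the spread between libraries, which may be technical. With 2 libraries in 1 group no test was made: an exact two-sided sign test on 2 values cannot go below p = 0.5.

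In the sarcomere, myosin thick filaments are held in register at their centre by the M-band, where myomesins crosslink neighbouring filaments and bind titin. The protein of Obsl1 binds both myomesin and titin there. Myosin-binding protein C sits in transverse stripes on either side of the M-band, binds myosin, actin and titin, and slows or permits crossbridge formation according to its phosphorylation. Its genes are known by muscle type: Mybpc3 for heart, Mybpc2 for fast and Mybpc1 for slow skeletal muscle. Mybph and Mybphl encode short relatives of the C proteins, the first known from skeletal muscle and the second from atria and the conduction system. In rodent heart an embryonic form of Myom1 with an added internal segment is known to give way to the shorter form around birth, as Myom2 is switched on.

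The sequences that set the long Myom1 transcripts apart are shown first, because the annotated forms of this gene differ by only a few short pieces (RNA sequence from GENCODE M21, mm10, plus strand, printed as DNA). Myom1-202 alone among the 3 long coding transcripts holds an internal coding exon of 294 bases, exon 18 of 38, at chr17:71082203-71082496. It adds 98 codons in frame, so that Myom1-202 codes for 1667 codons and Myom1-201 and Myom1-203 for 1569. Its GC content is 57.1%. The exon is printed whole, in capitals because all of it is absent from the other forms. In the junctions below it the capitals mark its first 20 bases.
exon 18 of Myom1-202: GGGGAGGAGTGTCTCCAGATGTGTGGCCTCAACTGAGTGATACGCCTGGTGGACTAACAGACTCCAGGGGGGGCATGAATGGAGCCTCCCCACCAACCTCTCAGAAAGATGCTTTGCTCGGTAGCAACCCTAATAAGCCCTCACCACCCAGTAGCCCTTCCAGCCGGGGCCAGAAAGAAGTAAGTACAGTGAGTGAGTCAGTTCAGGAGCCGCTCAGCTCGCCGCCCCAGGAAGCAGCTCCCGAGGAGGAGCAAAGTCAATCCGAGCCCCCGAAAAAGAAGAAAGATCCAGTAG
junction with the exon: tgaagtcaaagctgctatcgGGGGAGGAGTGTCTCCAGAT
junction without the exon: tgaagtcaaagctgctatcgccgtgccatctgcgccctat

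Close to the 3′ end Myom1-201 differs from Myom1-202 and Myom1-203 by its choice between a pair of exons of 23 bases. Myom1-201 uses chr17:71120794-71120816 and the other forms use chr17:71121126-71121148. Only 6 of the 23 aligned bases are identical (26.1%). Capitals mark the exon in use, between 20 bases of flanking exon on each side.
Myom1-201: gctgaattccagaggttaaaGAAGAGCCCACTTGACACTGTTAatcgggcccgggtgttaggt
Myom1-203: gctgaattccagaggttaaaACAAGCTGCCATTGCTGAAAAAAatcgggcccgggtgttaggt

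Mybpc3 holds very short coding exons whose use differs among its 3 annotated transcripts. Mybpc3-203 joins a 3-base exon (chr2:91122340-91122342) to a 12-base exon (chr2:91122636-91122647). Mybpc3-202 lacks the 3-base exon, and Mybpc3-201 starts the next exon 3 bases later, leaving 9 bases (chr2:91122639-91122647). Mybpc3-202 also has a different exon 2, of 247 bases against 267, and codes for 1113 codons. Mybpc3-201 codes for 1277 and Mybpc3-203 for 1278. Capitals mark the short exons.
Mybpc3-201: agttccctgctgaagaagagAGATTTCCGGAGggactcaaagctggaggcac
Mybpc3-202: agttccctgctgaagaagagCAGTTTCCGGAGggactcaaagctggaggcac
Mybpc3-203: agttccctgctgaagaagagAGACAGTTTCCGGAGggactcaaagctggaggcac

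The libraries held 36404376 and 34569708 expected counts (reads divided between features by the authors' program) in replicates 1 and 2. The 9 genes took 0.456% and 0.491% of those in annotated genes. Intervals given below are 95% and cover counting error only. All 7 cardiomyocyte markers were above 1 TPM (a transcript level scaled by length and to the same sum in each library), with a summed level of 20150 and 20585 TPM. Summed TPM in replicates 1 and 2 was 1149 and 1125 for fibroblast, 358 and 362 for endothelial, 205 and 210 for smooth muscle, 34351 and 26519 for blood, 86.2 and 65.3 for macrophage, and 83.3 and 108.8 for brown fat markers, all of them detected. The 5 lung epithelium markers summed to 150 and 10.1 TPM, and all 3 of them that could be tested were called higher in replicate 1. Sftpb, with 14 and 1 counts, and Sftpc, with 0 and 16, had too few counts to be tested. The part of these cell types in the results below was not tested. In bulk tissue fewer cells of a type and less RNA per cell cannot be told apart.

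At 14 days the heart held high levels of 1 gene for myosin-binding protein C and 2 for myomesins. Of the 9 genes, 6 reached 1 TPM in both libraries, and 3 did not: Myom3, Mybpc1 and Mybph. In order of mean level the 9 were Mybpc3, Myom1, Myom2, Obsl1, Mybphl, Mybpc2, Myom3, Mybpc1 and Mybph. Between neighbours in this order, the mean TPM differed by 1.58, 2.14, 3.00, 3.53, 4.43, 10.7, 3.63 and 4.80 times. The TPM values of neighbours did not overlap between libraries. The last fold rests on 7 and 8 counts of Mybpc1 and 1 and 2 of Mybph. Their counting intervals overlapped, at 2.81 to 14.4 and 0.0253 to 5.57 counts in replicate 1. In replicate 2 they were 3.45 to 15.8 and 0.242 to 7.22. In the second quantification, a separate transcript-based estimate from the same reads, the order was the same, but the values of Mybpc1 and Mybph overlapped. The plot of levels by gene shows both estimates.

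**Figure D1:**
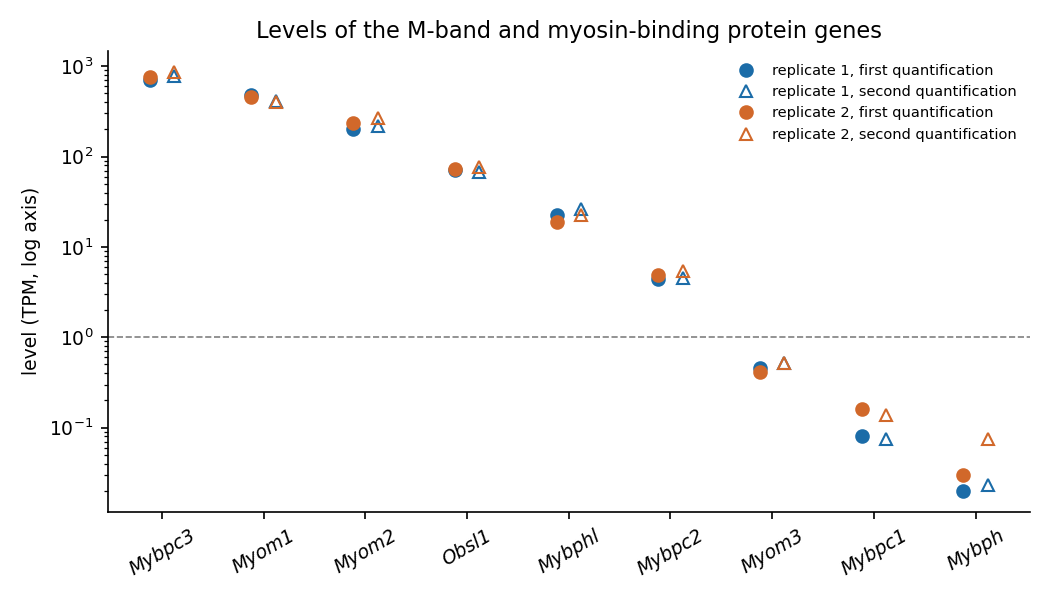
Level of each gene in TPM (log axis) in replicate 1 (blue) and replicate 2 (orange), by the first quantification (filled circles) and the second (open triangles). The dashed line is at 1 TPM; Mybpc3, Myom1, Myom2, Obsl1, Mybphl and Mybpc2 lie above it in every estimate and Myom3, Mybpc1 and Mybph below it.

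Myom1 (ENSMUSG00000024049, chr17:71002633-71126856, plus strand) encodes myomesin 1, the main crosslinker of the M-band. Its level was 477.55 TPM in replicate 1 and 456.85 TPM in replicate 2, a mean of 467 ± 14.6 (SD, n = 2). It ranked 106 of 22015 nuclear protein-coding genes. Myom2 (ENSMUSG00000031461, chr8:15057653-15133541, plus strand) encodes M-protein, the myomesin of fast fibres and of postnatal rodent heart. It stood at 199.37 and 236.93 TPM, a mean of 218 ± 26.6 (SD, n = 2), rank 273. Myom2 was thus the lower of the pair in both libraries, and the library with less Myom1 had more Myom2. With 2 libraries this cannot show that the levels are linked. Over protein-coding transcripts in the second quantification Myom1 was nearly equal in the libraries, at 375.1 and 374.7 TPM. Myom3 (ENSMUSG00000037139, chr4:135759715-135815564, plus strand), the myomesin of slow and intermediate skeletal fibres, had 34 and 31 counts, or 0.46 and 0.41 TPM. This was above the 3 counts that a count of 0 allows, and far below its relatives.

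Myom1 made up 70.5% of the summed TPM of the 3 myomesins in replicate 1 and 65.8% in replicate 2, a mean of 68.2% ± 3.32 (SD, n = 2). Myom2 made up 31.8% ± 3.32 and Myom3 0.0635% ± 0.00626. The share depended on which transcripts entered it. Over protein-coding transcripts only, a choice made after the transcript values were seen, Myom1 was at 294.52 and 285.19 TPM and Myom2 at 190.21 and 227.15. The Myom1 to Myom2 ratio was then 1.55 and 1.26, against 2.40 and 1.93 over all transcripts, and the share of Myom1 58.2% ± 3.60 (SD, n = 2). Myom1 stayed above Myom2 in both libraries on either scale.

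Obsl1 (ENSMUSG00000026211, chr1:75479310-75506452, minus strand) encodes an immunoglobulin-domain protein that links myomesin to titin and also belongs to the 3M complex of the ubiquitin system. It stood at 71.83 and 73.73 TPM, a mean of 72.8 ± 1.34 (SD, n = 2), rank 809. The other genes of the 3M complex lay below Obsl1 in both libraries: Fbxw8 at 19.2 ± 1.47, Cul7, its cullin scaffold, at 13.8 ± 1.64 and Ccdc8 at 4.09 ± 0.0212 TPM (SD, n = 2).

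Mybpc3 (ENSMUSG00000002100, chr2:91118144-91136516, plus strand), the cardiac myosin-binding protein C gene and a main site of variants in inherited cardiomyopathy, had the highest level of the 9. It stood at 712 and 765.23 TPM, a mean of 739 ± 37.6 (SD, n = 2), rank 56, from 81338 and 84392 counts. Mybpc2 (ENSMUSG00000038670, chr7:44501699-44524656, minus strand), the fast skeletal gene, stood at 4.40 and 4.90 TPM, a mean of 4.65 ± 0.354 (SD, n = 2). Its 434 and 467 counts were well above the 3 counts that a count of 0 allows. Mybpc1 (ENSMUSG00000020061, chr10:88518279-88605152, minus strand), the slow skeletal gene, had 7 and 8 counts, or 0.08 and 0.16 TPM. Mybpc3 made up 99.4% ± 0.0224 of the summed TPM of the C genes, Mybpc2 0.625% ± 0.0156 and Mybpc1 0.0160% ± 0.00679 (SD, n = 2). The Mybpc1 share rests on 7 and 8 counts and was 0.0433% by the deposited posterior mean and 0.00899% by CPM.

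Skeletal muscle markers were set beside Mybpc2, because this gene is known from fast skeletal fibres. Of the 14 markers only Myl1 (15.0 and 12.9 TPM) and Tnni2 (3.28 and 2.47 TPM) reached 1 TPM in both libraries, and the 14 summed to 19.9 TPM in each. In the first quantification the fast myosin heavy chain genes Myh1, Myh2 and Myh4 together had 0 counts in replicate 1 and 111 in replicate 2. Mybpc2 had 434 and 467. In the second quantification Myh1, Myh2 and Myh4 were at 0.0506, 0.0652 and 0.0471 TPM in replicate 1. Their levels in replicate 2 were 1.33, 0.254 and 0.180 TPM. Myod1, the myogenic regulator, was at 0 in both. The other skeletal markers went both ways, with more of them higher in replicate 2. Higher in replicate 1 were Myl1 with 295 and 242 counts, Tnni2 with 59 and 43, and Actn3 with 20 and 12. Higher in replicate 2 were Atp2a1 with 19 and 70 counts, Tnnt3 with 10 and 24, Mylpf with 7 and 20, and Tnnc2 with 1 and 5. So were Myh8 with 4 and 14.9 counts, Ryr1 with 6 and 17, and Myog with 0 and 1. Mybpc2 itself was 1.13 times as high in replicate 2 in CPM, with an interval that held 1 (0.993 to 1.29). The part of skeletal muscle RNA in the Mybpc2 values was not tested.

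Mybphl (ENSMUSG00000068745, chr3:108364911-108380057, plus strand), the H-like gene known from atria and the conduction system, stood at 22.49 and 18.69 TPM, a mean of 20.6 ± 2.69 (SD, n = 2), rank 3181. Mybph (ENSMUSG00000042451, chr1:134193448-134201232, plus strand), its skeletal relative, had 1 and 2 counts, with exact Poisson intervals of 0.0253 to 5.57 and 0.242 to 7.22 counts. At this depth it was not detectable above the limit that a count of 0 allows. Its last part overlaps Adora1 on the opposite strand, a gene with 1098 and 786 counts. Mybphl made up 99.9% ± 0.0505 of the summed TPM of the pair.

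All 7 atrial markers were detected, and none was called different. In the first quantification all 7 were higher in replicate 1, as Mybphl was, Stard10 by little (16.86 and 16.84 TPM). In the second, Stard10 (36.4 and 39.9 TPM) and Sln (21.5 and 22.0) were higher in replicate 2. All 4 blood and all 4 macrophage markers were also higher in replicate 1. With the median removed, so were 6484 of the 12876 genes tested. The summed level of the atrial markers was 1414 and 1166 TPM, led by Nppa (685 and 509), which encodes atrial natriuretic peptide. The atrial myosin light chain genes Myl7 (355 and 321) and Myl4 (292 and 262) came next. Mybphl was 6.33% of Myl7 in replicate 1 and 5.83% in replicate 2. Against Mybpc3 it was 3.16% in replicate 1 and 2.44% in replicate 2. Of 7 conduction system markers 5 were above 1 TPM in both libraries, with a summed level of 32.4 and 33.8 TPM. The part of atrial tissue in the Mybphl values was not tested.

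**Figure D2:**
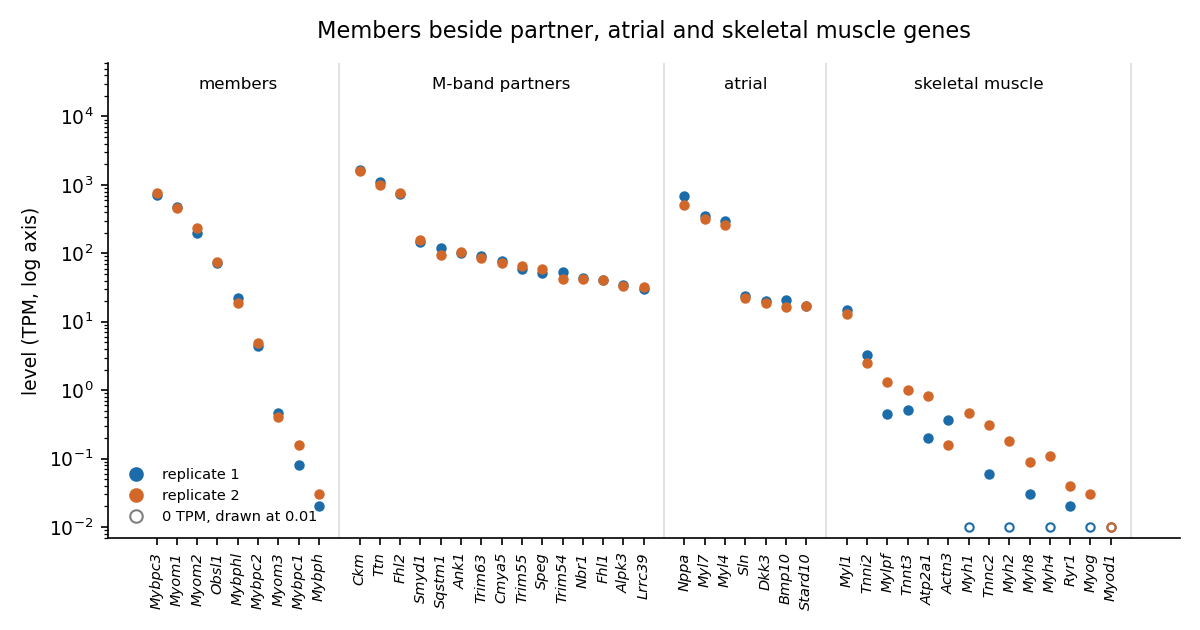
Level in TPM (log axis, first quantification) of the 9 genes and of genes of the M-band partner, atrial and skeletal muscle lists. Replicate 1 is blue and replicate 2 orange. Open circles at 0.01 are values of 0; Mybpc3, Myom1 and Myom2 lie among the upper partner genes, and Myh1, Myh2 and Myh4 are at 0 in replicate 1 where Mybpc2 is at 4.40.

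The M-band and C protein genes were set against the filament genes whose products they bind. Mybpc3 was 6.54% ± 0.267 of the summed TPM of the myosin heavy chains Myh6 and Myh7, and the 3 myomesins together 6.07% ± 0.0438 (SD, n = 2). In the second quantification these shares were 7.20% ± 0.397 and 5.66% ± 0.135 (SD, n = 2). Against titin (Ttn, 1095.79 and 1005.31 TPM), the ratio was 0.705 ± 0.0788 for Mybpc3 and 0.654 ± 0.0512 for the myomesins. The ratio of Mybpc3 to the summed myomesins was 1.08 ± 0.0362, which became 1.48 ± 0.0175 over protein-coding transcripts (SD, n = 2). In the second quantification these ratios were 1.27 ± 0.0398 and 1.38 ± 0.0203 (SD, n = 2).

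Among the 37 genes of the partner, thick filament and thin filament lists, the gene nearest in mean log2(TPM + 1) was sought. For Mybpc3 it was Fhl2 (741 ± 21.5 TPM), which encodes a LIM protein bound to titin, at a distance of 0.0058. For Obsl1 it was Cmya5 (75.0 ± 4.05 TPM), which encodes a titin-binding tripartite motif protein, at 0.043. Mybphl lay 0.17 from the myosin gene Myh7b (18.2 ± 3.34 TPM), and Myom1 0.47 from Myl7. Mybpc2 had no close neighbour: the nearest gene, Neb, which encodes the thin filament ruler nebulin, lay 1.22 away. These distances rest on 2 libraries of 1 tissue and describe level only.

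The listed genes that act with the 9 were all detected. The lists are a selection made with earlier results of these data known, so full detection says little. All 16 M-band partners were above 1 TPM in both libraries, led by Ckm (1627 ± 35.1 TPM), the M-band creatine kinase, Ttn (1051 ± 64.0) and Fhl2. The 8 thick filament genes were led by Myh6 (10387 ± 129 TPM), Myl2 (7231 ± 472), Myl3 (4907 ± 272) and Myh7 (905 ± 14.5). In the second quantification Myl2 (14790 and 16112 TPM) lay above Myh6 (9317 and 9602), and Myh7 was at 2056 and 2021. The 13 thin filament genes were led by Actc1 (6932 ± 391), Tpm1 (4788 ± 160), Tnnt2 (3403 ± 61.0) and Tnni3 (3140 ± 136). The 8 listed kinases, each known to phosphorylate myosin-binding protein C, were all present. Highest were Prkaca (169 ± 11.1 TPM), a catalytic subunit of protein kinase A, Camk2d (61.1 ± 3.33), the main cardiac calmodulin kinase, Prkacb (29.0 ± 4.04) and Rock1 (25.0 ± 1.27; SD, n = 2 throughout).

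Between the libraries none of the 9 genes met the rule for a difference, which asked for a fold of 2 or more in TPM + 1, a mean count of 50 or more, and separate deposited intervals. Of the 6 with enough counts 0 were called, against 0.349% of the 12876 genes tested (45 genes, 0.303% higher in replicate 1 and 0.0466% higher in replicate 2), so that a count of 0 among 6 is near the background. With 1 library on each side no p-value could be given, whether adjusted or not. Their median difference in size was 0.0958 on the log2 scale, against 0.112 over all genes tested. Of the context lists, 1 gene was called: Tnni1, the slow skeletal and fetal troponin I gene, at 7.78 and 19.4 TPM.

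The largest difference among the 6 was that of Mybphl, 0.28 on the log2 scale (1.21-fold higher in replicate 1 in TPM + 1). Myom2 differed by -0.22, being higher in replicate 2, and Myom1 by 0.09 the other way. Mybpc2 differed by -0.10, Mybpc3 by -0.08 and Obsl1 by -0.01. In CPM, which scales counts by library total and not by length, the ratio of replicate 2 to replicate 1 was 1.21 for Myom2 (1.19 to 1.23). The ratio of replicate 1 to replicate 2 was 1.03 for Myom1 (1.01 to 1.04), 1.18 for Mybphl (1.06 to 1.32), 0.919 for Obsl1 (0.888 to 0.952) and 0.915 for Mybpc3 (0.906 to 0.924). For these 5 of the 6 genes the interval left out 1, as it did for 36.1% of the 12876 genes tested (4654 genes). The interval narrows as counts grow and covers counting error only, so nothing particular to these genes is read from it. For Mybpc2 (0.882, 0.772 to 1.01), Myom3 (1.04, 0.621 to 1.75), Mybpc1 (0.831, 0.256 to 2.62) and Mybph the interval held 1. Over 5 ways of scaling and counting each gene but Mybph kept 1 sign, and Obsl1 ranged from -0.10 to -0.01. All 5 use the same 2 libraries, so a kept sign cannot show that a difference would recur.

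**Figure D3:**
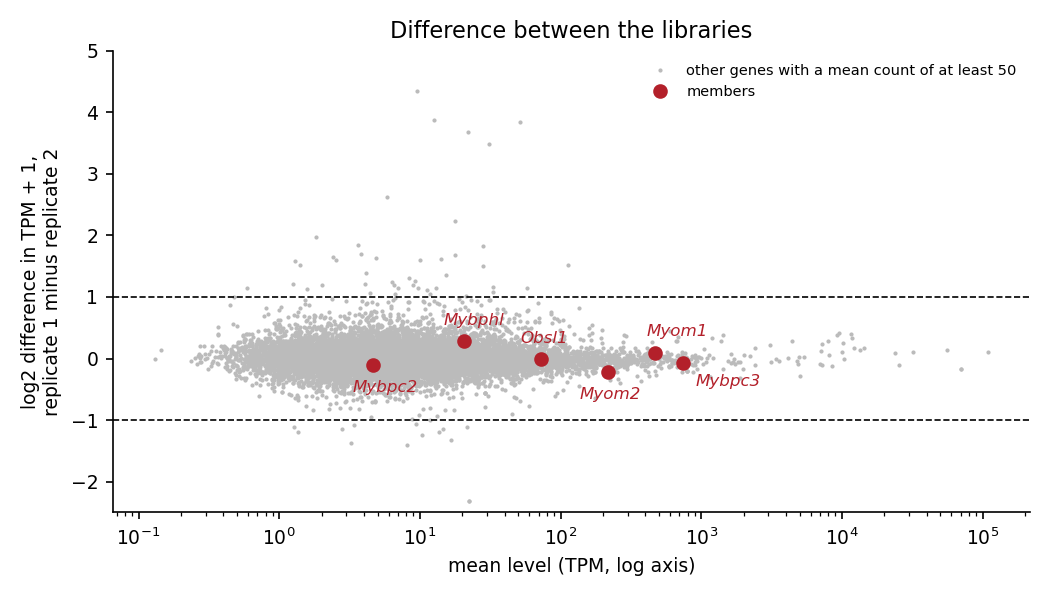
Difference between the libraries in log2(TPM + 1), replicate 1 minus replicate 2 with the median removed, against mean TPM (log axis) for the 12876 genes with a mean count of at least 50. The 6 named genes (red) lie between -0.22 and 0.28, inside the dashed lines at 2-fold.

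Transcript by transcript, each of the 6 detected genes had the same leading transcript in both libraries and in both quantifications. For Mybpc3 it was Mybpc3-203, the form with both short exons in full, at 99.07% and 99.35% of the gene's TPM. Mybpc3-201, which lacks the first 3 bases of the 12-base exon, took 0.63% and 0.30%. Mybpc3-202, without the 3-base exon and with a different exon 2, took 0.30% and 0.35%. Mybpc3-201 had 514 and 251 counts and Mybpc3-202 had 243 and 293. Mybpc2-201 held all of Mybpc2, and Mybphl had 1 annotated transcript.

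For Myom2 the leading form was Myom2-201, at 95.6% ± 0.332 of TPM (SD, n = 2), with 37 exons and 1463 codons. The retained-intron transcript Myom2-202 took 1.95% ± 0.0707 in the first quantification and 6.30% ± 0.325 in the second. The main myomesin 2 message was thus the annotated full-length one in both estimates.

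Myom1 was divided among more forms. Myom1-203, the full-length form without exon 18, led at 54.99% and 55.69% of TPM, and at 63.7% ± 2.88 in the second quantification (SD, n = 2). The next by TPM was Myom1-208, a noncoding transcript of 941 bases and 4 exons at the 3′ end of the gene, at 34.52% and 34.64%. In the second quantification Myom1-208 took only 5.34% and 3.42%, and by expected counts 7.95% ± 0.00554. It shares 860 of its 941 bases with Myom1-203, which leaves 81 bases to tell them apart. Because Myom1-208 is short, its 3902 and 3616 counts weigh more in TPM than those of the long forms. The gene level of Myom1 given above includes it. The coding transcript Myom1-209, which starts upstream, was at 0.02% in both libraries in the first quantification and at a mean of 5.88% ± 0.173 (SD, n = 2) in the second.

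Among the 3 long coding transcripts of Myom1, the share of Myom1-202, the form with the 294-base exon, was 7.67% and 7.80% of their TPM, a mean of 7.73% ± 0.0948 (SD, n = 2). The second quantification gave 12.1% and 11.4%. Behind the first estimate stood 3521 and 3349 expected counts. Myom1-203 took 89.2% ± 0.0288 by the first and 74.2% ± 1.67 by the second. Myom1-201, with the other 23-base exon, took 3.05% ± 0.124 by the first and 14.0% ± 1.16 by the second. For all 3 transcripts the quantifications differed from each other by more than the libraries did. The long form with exon 18 was a minority in every estimate and library.

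**Figure D4:**
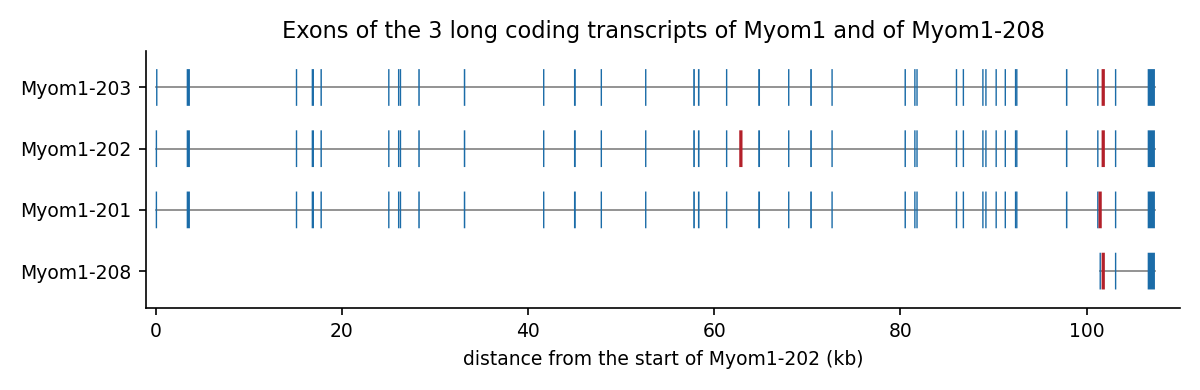
Exons of Myom1-203, Myom1-202, Myom1-201 and Myom1-208 as boxes along the gene, by distance from the start of Myom1-202 in kb, drawn to scale except that the narrowest are widened to be seen. Red boxes are the 294-base exon, present in Myom1-202 only, and the 23-base exons, of which Myom1-201 uses one and the other transcripts the other.

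Obsl1 was the most divided of the 6. Obsl1-202, the full-length form of 20 exons and 1804 codons, held 38.27% and 40.39% of the gene's TPM, 42.8% ± 0.455 in the second quantification and 69.3% ± 0.625 of expected counts (SD, n = 2). The 8 retained-intron transcripts together held 39.0% ± 0.290 of TPM by the first estimate, 27.7% ± 3.15 by the second and 15.8% ± 1.06 of counts. Among them were Obsl1-207 (8.33% and 11.36%), Obsl1-208 (6.04% and 3.95%), Obsl1-203 (5.79% and 6.40%) and Obsl1-213 (13.80% and 11.98%), and the last was at 0 in the second quantification. The coding transcripts Obsl1-205, of 1252 bases, and Obsl1-211, of 4131 bases, held 13.0% ± 1.09 and 4.64% ± 0.594 of TPM by the first estimate. By the second they held 18.1% ± 1.86 and 7.20% ± 1.05.

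**Figure D5:**
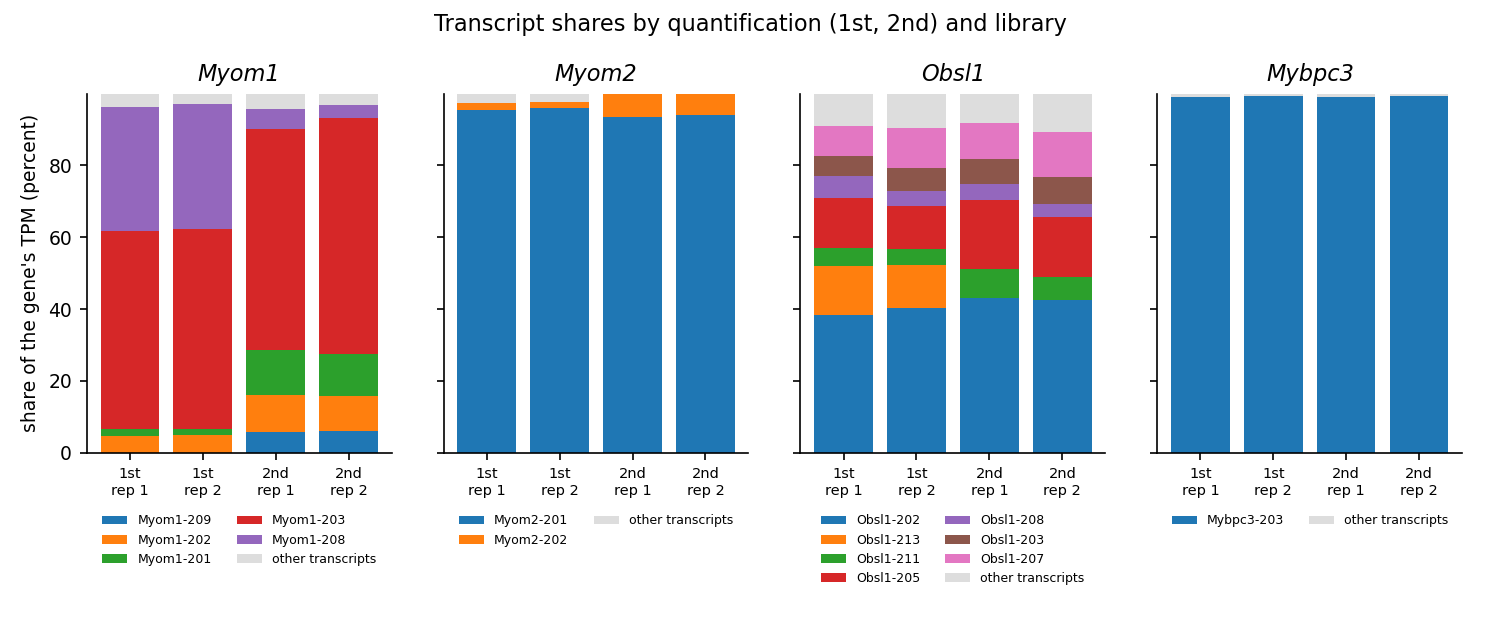
Share of each gene's TPM (percent) by transcript for Myom1, Myom2, Obsl1 and Mybpc3, in replicates 1 and 2 of the first (1st) and second (2nd) quantification. Mybpc3 and Myom2 are nearly all 1 transcript in every bar, whereas Myom1-208 is 34.6% of Myom1 in the first quantification and 4.38% in the second.

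The 3 genes below 1 TPM had few counts to divide among transcripts. Of the 34 and 31 counts of Myom3, 23.4 and 24.2 were given to Myom3-203, a retained-intron transcript, and 9.30 and 6.79 to the only annotated coding form, Myom3-201. Myom3-203 led in both libraries and both quantifications. Mybpc1 and Mybph, with 1 to 8 counts, had different leading transcripts in the 2 libraries in the first quantification and the same one in the second. For the 9 genes the counts of reads were whole numbers in both libraries, to within 0.005. Counts were exactly whole in both libraries for 82.3% of all genes with a mean count of at least 50. Myom1, Myom2, Myom3 and Mybpc3 shared no run of 50 bases of their leading transcript with any other annotated gene, while Obsl1 shared 1.35%, Mybpc2 2.72%, Mybphl 3.42%, Mybpc1 5.24% and Mybph 26.6% of theirs. The 5′ end of Myom1 overlaps Myl12a, a myosin regulatory light chain gene on the opposite strand with 7215 and 7505 counts. Myl12a spans chr17:70993656-71002878, and of the Myom1 transcripts only Myom1-209 reaches into it. The 3 long coding transcripts start at chr17:71019521 or later. Whether counting used strand was not given.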

How the data were processed

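Total RNA-seq tables of 2 heart libraries were used. Per the file headers, the authors deposited expected counts, estimated per gene and transcript and not normalized, and TPM, scaled by effective length, with a posterior mean and interval bounds (a deposited score of precision within 1 library). The deposited percent is each transcript's share of its gene's TPM. A second deposited set holds estimated counts and TPM per transcript, summed here per gene. The column names are those of RSEM and kallisto. The readme files name mm10 and GENCODE M21. The aligner was not given in the sources used here, nor were the programs, the treatment of CAST/EiJ reads or the use of strand in counting.

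Effective length was 99 bases below length in the first set and 335 and 334 in the second. Of counts, 0.568% and 0.611% lay outside annotated genes and were left out. Over 16384 genes with a mean count of at least 10 the chi-square of the 2 libraries was 12.6 per degree of freedom, so they were counted as separate libraries.

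Differences were taken in log2(TPM + 1), a pseudocount of 1, after removing the median (-0.03) over genes at 1 TPM or more. Genes were called by size, with no p-value, and the rule was tested on simulated data. TMM factors (0.986 and 1.01) came from edgeR 4.0.16 under R 4.3.3 for an alternative only. Count ratios carry exact Clopper-Pearson intervals. The rest was done in Python 3.11.15 (pandas 2.3.3, numpy 2.4.6, scipy 1.17.1, with plots by matplotlib 3.10.9).

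The 9 genes, lists and rules were chosen with earlier results of these data known. Named were all 9 genes, transcripts with at least 5% of a detected gene in either library by either set, the 4 highest genes of each context list, all of the 3M complex, and the nearest gene in level, except that 1 gene of the M-band partner list is not reported here. Markers, Tnni1 and other genes or transcripts outside this were named after their values were seen.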

Additional observations from a re-analysis of the deposited data

How the results depend on the processing

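The 6 genes at 1 TPM or more stayed 6 under the second quantification, the posterior mean and either library alone, with 7 at a threshold of 0.1 TPM and 5 at 10 TPM. The 6 kept 1 leading transcript each under every alternative. The share of Myom1 among the myomesins was 62.8% in the second quantification, 61.9% by CPM and 58.2% over protein-coding transcripts, the last chosen after seeing the data, and 65.8% to 70.5% with either library left out. That of Mybpc3 was 99.4%, 99.3% and 99.5% in the second quantification, by the posterior mean and by CPM, and 99.3% to 99.4% with a library left out. That of Mybphl was 99.8%, 99.7% and 99.8% in the same order, and 99.8% to 99.9%. No gene of the 9 was called different under any of the 7 settings of the rule. The genes called overall were 89 with a pseudocount of 0.1 and 213 at 1.5-fold, against 45, and 46 to 64 under the others. The cause of these shifts was not tested. No paired analysis was possible because there is 1 group. Depth limits Myom3, Mybpc1 and Mybph, with 1 to 34 counts each.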
